A study of Mus musculus with 12 samples.

Results

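In bone marrow B cells kept in normal oxygen, 4 genes differed by genotype past the test in the fit of all 12 libraries. With only the 6 normoxia libraries in the fit, none passed. Of the 3 that fell without HIF-1α, 2, Ankrd37 and Narf, were members of a list of 39 tested hypoxia-inducible genes. That list was written with earlier results of these data known. Over all genes tested, 0.0171% were called lower. The comparison set 3 libraries of HIF1a KO cells in normoxia against 3 libraries of WT cells in normoxia, 6 of the 12 libraries of the series, and covered the 17506 genes with enough reads of the 46983 in the table. The other 6 libraries, KO and WT cells kept in hypoxia, held the same genotypes, and the labels do not say whether they came from the same mice as the normoxia libraries.

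Both groups were B cells purified from bone marrow with magnetic beads and cultured in normoxia. According to the methods of the study, its B cell-specific knockouts carried a floxed Hif1a gene, Hif1a f/f, together with Mb1cre, and its control mice were Hif1a f/f littermates without Cre or Mb1cre/+ littermates. Mb1 is another name of Cd79a, and the Cre sits in that locus, so deletion begins in early B-lineage cells and other cells in the tube keep Hif1a. For a separate culture of B cells read by flow cytometry, the study names Hif1a f/f mice beside Hif1a f/f Mb1cre/+ mice. The labels of these libraries call the groups only HIF1a KO and WT. Which kind of control the WT libraries were, and the age and sex of the mice, were therefore not given for them in the sources used here. Whether the replicates were separate animals is not stated in the labels either. The p-values therefore measure the spread between libraries, which may in part be technical.

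HIF-1α pairs with ARNT to form a transcription factor, and oxygen sets how much of it there is. In well-oxygenated cells prolyl hydroxylases (Egln1, Egln2 and Egln3) mark HIF-1α for ubiquitination by the VHL complex and it is destroyed, while in low oxygen it accumulates and switches on genes of glucose uptake, glycolysis, angiogenesis and mitophagy. Bone marrow is a poorly oxygenated tissue in which B cells develop from pro-B and pre-B cells to immature and mature B cells, and what HIF-1α does there while oxygen is plentiful is the question of this comparison.

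The libraries differed in ways that their group names do not give. Total counts were 29018747 to 36880082 in the KO libraries and 27829370 to 36533223 in the WT libraries. KO library 3 had a count for 27542 genes, against 21912 and 22147 in KO libraries 1 and 2 and 23398 to 24243 in the WT libraries, and 3010 genes had a count in KO library 3 alone among the 6. On the first principal component of the normoxia libraries, which held 48.5% of the variance, KO library 3 lay at 20.2, against -59.2 and -42.5 for KO libraries 1 and 2 and 5.14 to 52.7 for the WT libraries. The KO libraries and WT library 3 had no Y-linked count and 51716 to 77454 counts of Xist, the transcript of the inactive X chromosome, while WT libraries 1 and 2 had 21 and 19 counts of Xist and carried Y-linked reads (3251 and 3197 counts of Ddx3y). Values without KO library 3 and from the Xist libraries alone (those of all groups with Xist and without Y-linked reads) are given beside many of the results below. Genes named below that were not called, other than the 2 most abundant of a list, were chosen after their values were seen.

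**Figure D1:**
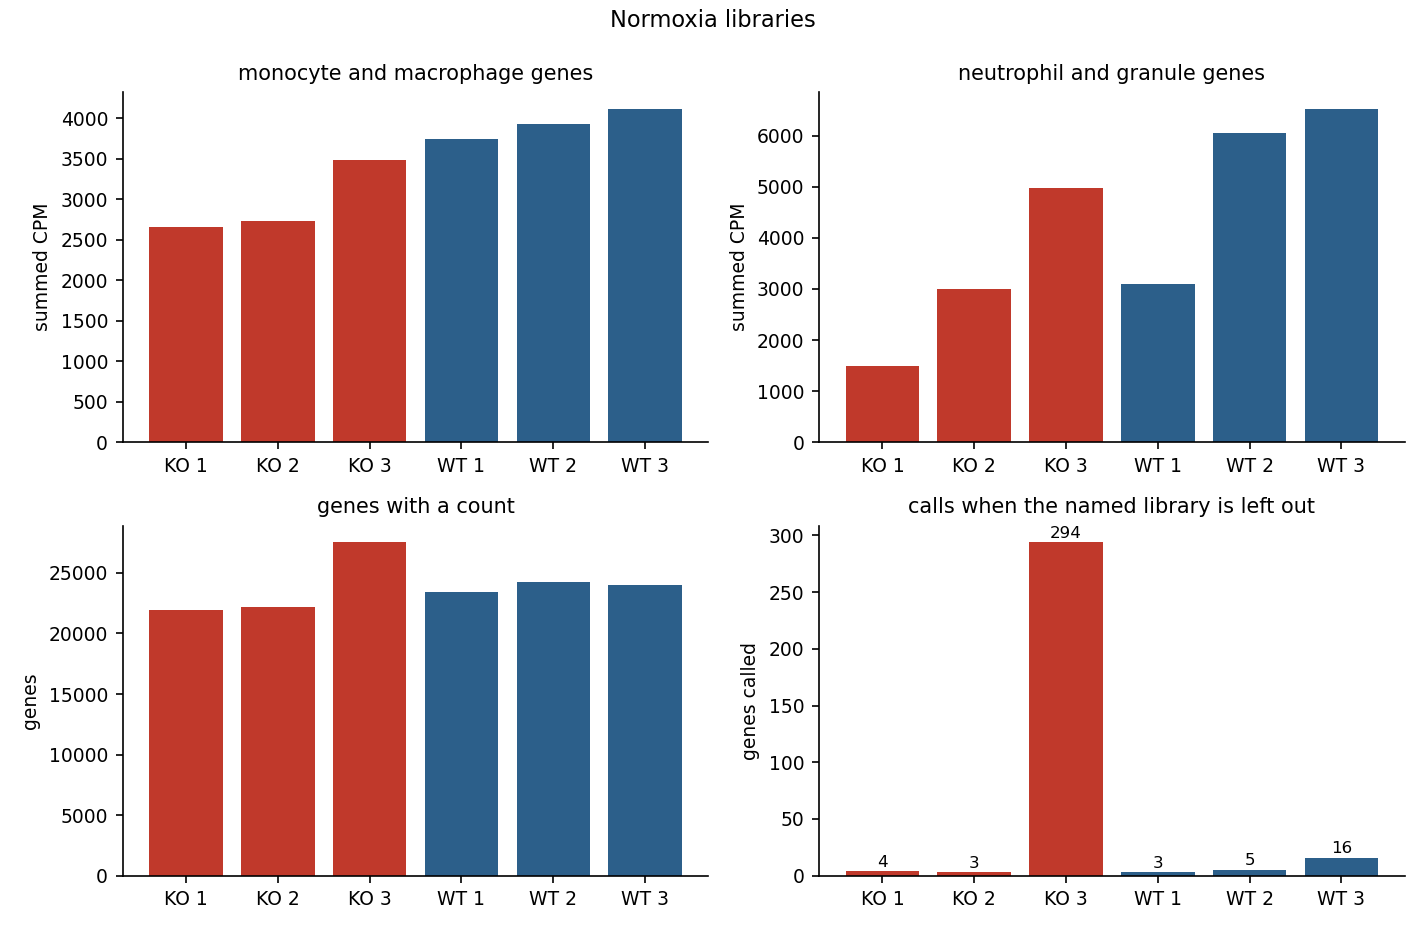
Bars give, for each of the 3 KO (red) and 3 WT (blue) normoxia libraries, the summed CPM of the monocyte and macrophage list and of the neutrophil and granule list, the number of genes with a count, and the number of genes called when that library is left out. KO library 3 has the most genes with a count, 27542, carries more monocyte and neutrophil transcripts than the other KO libraries, and its omission gives 294 calls, against 3 to 16 for the other omissions.

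Hif1a itself (ENSMUSG00000021109, chromosome 12, 73901375 to 73947530, mm10) was not lower in the KO libraries. It had 114, 109 and 110 CPM in the KO libraries, against 85.0, 87.1 and 96.8 CPM in the WT libraries, where CPM are counts per 1000000 reads of the TMM-adjusted library. Every KO library lay above every WT library, and the log2 fold change was 0.31 ± 0.10 (SE, 3 libraries against 3) with an edgeR adjusted p of 0.402. The counts cover the whole gene, deleted and remaining exons together, so they do not check the genotype. Under hypoxia the Hif1a difference was 0.46 (edgeR adjusted p = 0.0132).

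Across the 17506 genes, 4 passed an edgeR quasi-likelihood test with a Benjamini-Hochberg adjusted p under 0.05 (0.0228% of those tested). Ankrd37, Narf and Cd79a fell in KO cells (3 genes, 0.0171%) and 1 gene rose (0.00571%). Before adjustment, 1155 genes had a p under 0.05 with a lower level in KO (6.6%) and 439 with a higher level (2.51%). Every KO library lay below every WT library for 1354 genes (7.73%) and above for 837 (4.78%). The median log2 fold change over all genes was -0.03. For the 13388 genes with a mean of at least 1 CPM, the median size of the change was 0.12 and the median SE 0.13, so for a typical gene the difference between the genotypes was no larger than its error.

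**Figure D2:**
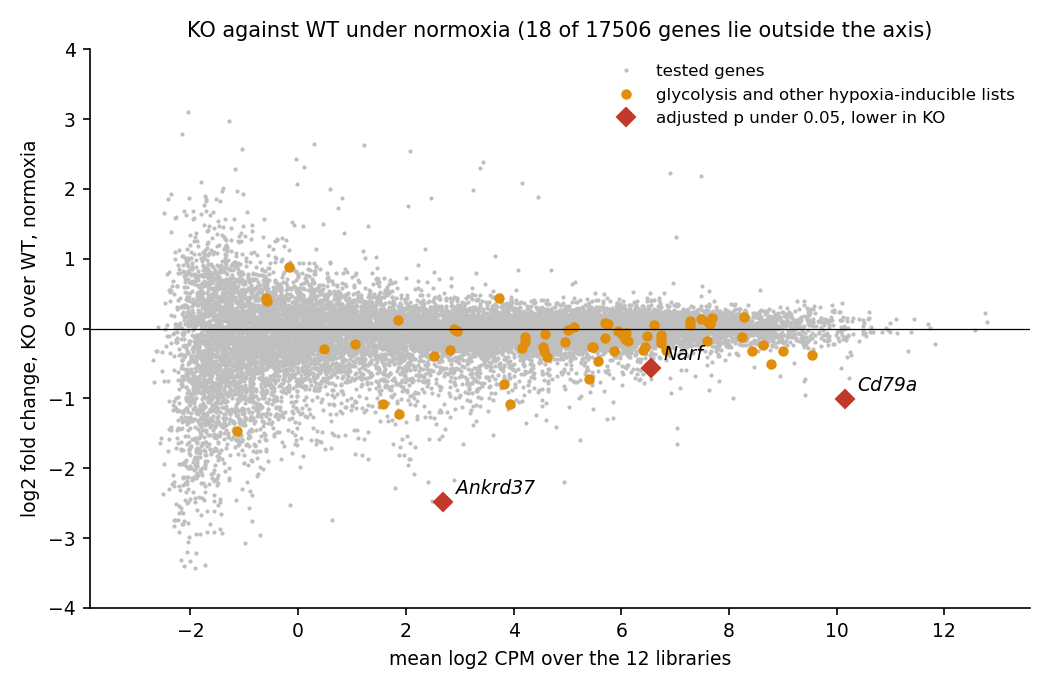
Each point is 1 of the 17506 tested genes, with its mean log2 CPM over the 12 libraries on the horizontal axis and its log2 fold change, KO over WT in normoxia, on the vertical axis, which ends at 4 on either side and leaves 18 genes outside. The genes called lower, Ankrd37, Narf and Cd79a, are marked with diamonds, and the members of the glycolysis and other hypoxia-inducible lists, are drawn in orange, most of them near 0.

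Leaving out 1 library changed this count. Without KO library 3, 294 of 18105 genes were called (1.62%), 291 of them lower in KO, and they included all 4 of the calls above. Of the 294, 291 had also been tested in the fit of all libraries, and 153 of these had a level in KO library 3 at or above the lowest WT library. Leaving out any other library of the 2 groups gave 3 to 16 calls. With DESeq2 in place of edgeR 103 genes were called, 89 lower and 14 higher in KO, again with all 4 among them and 70 in common with the 294. With only the 6 normoxia libraries in the fit no gene was called (0 at an adjusted p under 0.05, 1074 at an unadjusted p under 0.05).

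Ankrd37 (ENSMUSG00000050914, chromosome 8, 45996902 to 46005707, minus strand), which encodes an ankyrin repeat protein and is a known target of HIF-1, had the largest change of the 3 genes called lower. It had 0.307, 0.382 and 0.276 CPM in the KO libraries (11, 11 and 8 counts), against 2.24, 1.93 and 1.33 CPM in the WT libraries (62, 62 and 48 counts). The highest KO library was far below the lowest WT library. The log2 fold change was -2.49 ± 0.24 (95% interval -3.01 to -1.97, edgeR adjusted p = 0.000984). Under hypoxia Ankrd37 had 466, 478 and 564 counts in the KO libraries, against 4725, 4477 and 4326 counts in the WT libraries, a log2 fold change of -3.26 (edgeR adjusted p = 5.7e-08). The difference between the 2 genotype effects, -0.77 ± 0.31, did not pass the interaction test (edgeR adjusted p = 0.405). The transcript was thus rare in normoxia in both genotypes, and its normoxic call rested on 8 to 62 counts per library.

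Narf (ENSMUSG00000000056, chromosome 11, 121237253 to 121255856, plus strand) encodes a nuclear protein that binds prelamin A and is related in sequence to iron-only hydrogenases. Its level was 45.4, 48.9 and 49.5 CPM in the KO libraries, against 71.5, 64.7 and 76.3 CPM in the WT libraries. The 3 KO libraries lay close together and below all 3 WT libraries, and the log2 fold change was -0.56 ± 0.08 (95% interval -0.73 to -0.40, edgeR adjusted p = 0.0246). Under hypoxia the gap was wider, -1.51 on the log2 scale (edgeR adjusted p = 3.7e-07), and the 2 effects differed by -0.94 ± 0.11 (interaction, edgeR adjusted p = 0.0029). The call of Narf was lost in more alternatives than those of Ankrd37 and Cd79a. Among the fits in which Narf missed the threshold were those with RLE size factors (0.0531) and without KO library 1 (0.234), KO library 2 (0.166) or WT library 1 (0.156). Its adjusted p ranged from 6.11e-06 (DESeq2) to 1.0 across all alternatives. Of the 4 calls, 3 were kept with TMM computed without immunoglobulin and mitochondrial genes, and 3 with the filter of 1 CPM in 3 libraries. The log2 fold change stayed between -0.67 and -0.51 throughout.

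The promoters of these 2 genes were read from RefSeq (GRCm38.p6, the build of the files) because both genes are called lower without HIF-1α in both oxygen conditions, and HIF binds a core of 5 bases, ACGTG or GCGTG. The sequences give the 250 bases before the RefSeq start of transcription, 5′ to 3′ on the strand of the gene, with each core on either strand in capitals. For Ankrd37 the window is chr8:45999851-46000100, minus strand, and lies within the longer GENCODE gene. For Narf it is chr11:121236986-121237235, plus strand.
Ankrd37: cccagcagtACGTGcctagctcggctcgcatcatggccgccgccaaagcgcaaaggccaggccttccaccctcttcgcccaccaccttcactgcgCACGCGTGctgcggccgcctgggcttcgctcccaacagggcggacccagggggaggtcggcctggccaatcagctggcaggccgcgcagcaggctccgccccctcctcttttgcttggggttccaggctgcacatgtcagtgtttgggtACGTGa
Narf: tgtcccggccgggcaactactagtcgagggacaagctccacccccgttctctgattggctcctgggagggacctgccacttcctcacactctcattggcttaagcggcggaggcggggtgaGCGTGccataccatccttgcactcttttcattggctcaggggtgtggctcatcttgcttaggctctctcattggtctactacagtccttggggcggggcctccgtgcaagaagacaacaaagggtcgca
Ankrd37 held 4 cores, ACGTG at positions -241 and -6 from the start and GCGTG at -155 on the opposite strand and at -152, where the last 2 overlap. Narf held 1, GCGTG at -129. Either core stood in 38.6% of 32851 such windows before the starts of 27025 genes (ACGTG in 16.6% and GCGTG in 28.2%). The share was 77.8% of 36 windows of 23 genes of the glycolysis list and 73.3% of 45 windows of 31 genes of the other hypoxia-inducible list. A core in these windows is a match of letters, and binding was not measured in these libraries.

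Neighbors of Ankrd37 and Narf were read because the strand setting of the counting was not given in the sources used here. Ufsp2, a protease gene on the opposite strand whose end overlaps Ankrd37, had a log2 fold change of -0.16 ± 0.09 with every KO library below every WT library (edgeR adjusted p = 0.593). Lrp2bp, which also overlaps Ankrd37 on the opposite strand, was at 0.46 ± 0.44 (edgeR adjusted p = 0.757). Its groups overlapped, and it had 227 counts over the 12 libraries. Hexdc, a hexosaminidase gene near Narf on the same strand, had 7.93, 9.89 and 9.46 CPM in the KO libraries, against 12.3, 12.5 and 11.9 CPM in the WT libraries. The KO libraries of Hexdc lay below those of WT, at -0.43 ± 0.12 (edgeR adjusted p = 0.337), and it passed the test under hypoxia (-0.75, edgeR adjusted p = 0.00227).

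Cd79a (ENSMUSG00000003379, chromosome 7, 24897381 to 24902197, plus strand), the Igα chain of the B cell receptor complex, had 881, 776 and 820 CPM in the KO libraries, against 1596, 1913 and 1499 CPM in the WT libraries. The KO libraries were tightly grouped below all WT libraries, with a log2 fold change of -1.02 ± 0.10 (95% interval -1.23 to -0.80, edgeR adjusted p = 0.000984). Under hypoxia the change was -0.93 (edgeR adjusted p = 0.000169), and the interaction was 0.08 (edgeR adjusted p = 0.902). The Cre of the study's knockouts is inserted in this gene and the labels do not say whether the WT libraries carried it, so loss of HIF-1α and the insertion cannot be told apart for Cd79a. Arhgef1, a guanine nucleotide exchange factor gene that begins at 24902912 just past Cd79a, ran the other way, with 834, 827 and 865 CPM in the KO libraries, against 723, 751 and 683 CPM in the WT libraries (0.23 ± 0.07, edgeR adjusted p = 0.400), and Rps19 (-0.19) and Rabac1 (-0.16) nearby had overlapping groups.

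Ankrd37, Narf and Cd79a were called lower in the hypoxia libraries too, where 1723 genes passed (9.84%), a count that was 100 with the monocyte and neutrophil covariates and 30 in the Xist libraries. WT libraries 1 and 2 carried Y-linked reads in both oxygen conditions, and the deviations of WT libraries with the same number correlated between the conditions (0.20, 0.36 and 0.43, across genes), so the hypoxia calls are not independent support. Their normoxic calls did not hold in every fit. With the mean levels of the monocyte and the neutrophil lists as covariates Ankrd37 was called (-2.27, edgeR adjusted p = 0.0348), while Cd79a (-1.02, 0.180) and Narf (-0.52, 0.9999) were not. The monocyte covariate was itself lower in every KO normoxia library (3.69, 3.84 and 4.81 mean log2 CPM) than in every WT normoxia library (5.19, 5.22 and 4.92). A fit with it can therefore take out part of a genotype difference. The median SE was 0.23 in that fit, against 0.16 in the main fit. With the Xist libraries alone, which leaves WT library 3 alone in its group and assumes that it varies like the others, the log2 fold changes were -2.05 for Ankrd37 and -0.86 for Cd79a (edgeR adjusted p = 0.107 each) and -0.67 for Narf (0.152). Over all alternatives the adjusted p ran between 4.23e-12 and 1.0 for Ankrd37 and 5.21e-21 and 1.0 for Cd79a, and none turned the direction of any of the 3.

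**Figure D3:**
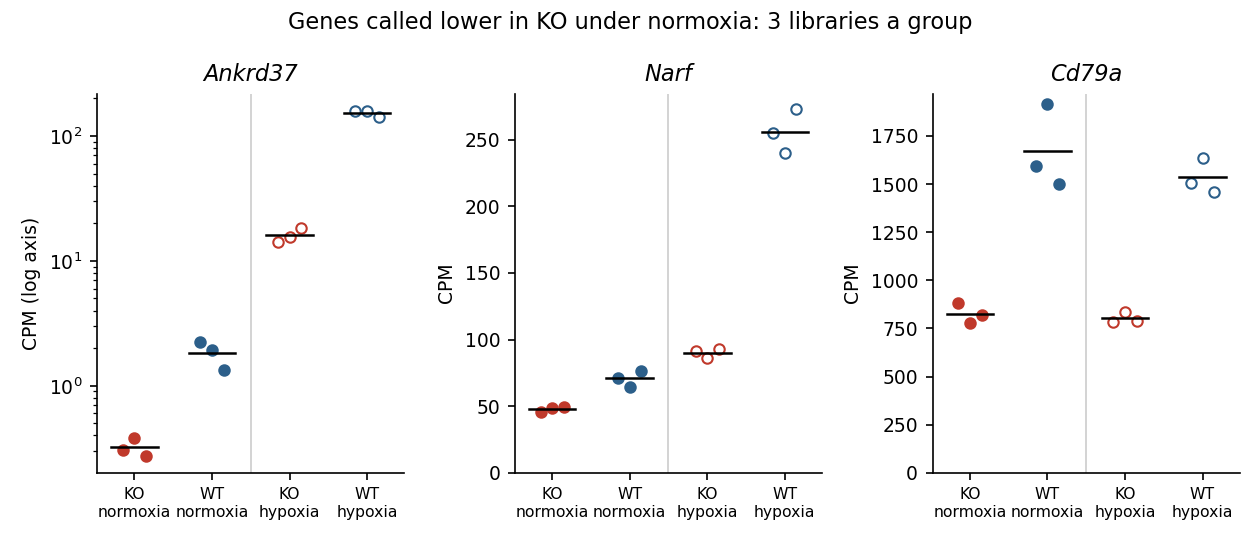
Points are the CPM of Ankrd37 (log axis), Narf and Cd79a in each library of KO normoxia, WT normoxia, KO hypoxia and WT hypoxia, and the black bars are the means of 3 libraries. In normoxia the KO libraries of Ankrd37 (0.276 to 0.382 CPM), Narf (45.4 to 49.5) and Cd79a (776 to 881) lie below all WT libraries, and the same order holds in hypoxia.

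Rps26-ps1, a pseudogene whose reads cannot be separated from those of its parent with certainty, was just outside the threshold (-1.20, edgeR adjusted p = 0.0782). Ubxn11 was further from it (-0.75, edgeR adjusted p = 0.173). Ubxn11, which encodes a UBX domain protein, had 8.09, 9.02 and 8.49 CPM in the KO libraries, against 12.7, 14.4 and 16.0 CPM in the WT libraries, with no overlap.

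Genes of glucose uptake and glycolysis, the best known program of HIF-1, had a median a little below 0, and none of the 24 passed the test. Their median log2 fold change was -0.22 and 21 of 24 lay below 0, beside a median of -0.03 and 56.2% of genes below 0 over all genes tested. Summed over the list, the level was 1849 to 1971 CPM in the KO libraries, against 2165 to 2400 CPM in the WT libraries, with no overlap. Monocyte transcripts were also lower in the KO libraries (2652 to 3480 CPM summed, against 3736 to 4116 CPM in the WT libraries), and the median of the list was 0.05 once these levels were covariates and -0.10 in the Xist libraries. The monocyte covariate separates the genotypes in normoxia, so the covariate fit cannot tell myeloid transcripts from genotype. The part of myeloid transcripts in the list's shift was not tested.

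The glycolytic genes with the smallest unadjusted p are described by their values. Eno1, the enolase that makes phosphoenolpyruvate, had 135, 149 and 154 CPM in the KO libraries, against 191, 233 and 197 CPM in the WT libraries. All KO libraries of Eno1 lay below all WT libraries (-0.51 ± 0.15, 95% interval -0.82 to -0.19, edgeR adjusted p = 0.367). Pfkfb4, a kinase that sets the level of the activator of phosphofructokinase, had 17.9, 22.2 and 24.0 CPM in the KO libraries, against 24.4, 28.6 and 31.7 CPM in the WT libraries (-0.40 ± 0.13, edgeR adjusted p = 0.400). Pkm, the pyruvate kinase gene, had 269, 287 and 326 CPM in the KO libraries, against 364, 419 and 361 CPM in the WT libraries (-0.38 ± 0.16, edgeR adjusted p = 0.508). Aldoa, an aldolase gene, had 189, 201 and 187 CPM in the KO libraries, against 221, 279 and 221 CPM in the WT libraries (-0.32 ± 0.12, edgeR adjusted p = 0.479). None of these 4 had overlapping groups. Of the 24 members, 4 had an unadjusted p under 0.05, all lower in KO (6.6% over all genes). Every KO library lay below every WT library for 8 of the 24 and above for 1 (7.73% and 4.78% over all genes).

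Ldha, the lactate dehydrogenase subunit, had 147, 139 and 149 CPM in the KO libraries, against 179, 211 and 152 CPM in the WT libraries (-0.32 ± 0.16), and the glucose transporter Slc2a1 had 20.4, 19.2 and 19.3 CPM in the KO libraries, against 24.8, 25.1 and 21.0 CPM in the WT libraries (-0.27 ± 0.18). The groups of both genes did not overlap, though the nearest libraries of Ldha were 149 and 152 CPM. Pgk1, a phosphoglycerate kinase, and Pdk1, the kinase that closes pyruvate dehydrogenase, had overlapping groups, at -0.12 ± 0.20 and -0.16 ± 0.14. Gapdh was at -1.08 ± 0.66, with 6.46 to 7.08 CPM in the KO libraries, against 7.92, 7.02 and 27.7 CPM in the WT libraries, and its many pseudogenes make its counts uncertain.

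The same list was far apart between the genotypes under hypoxia. There its median was -1.24 and 20 of 24 members were called (9.84% over all genes), 19 of them lower in KO. Summed levels were 4769, 4626 and 6442 CPM in the KO libraries, against 17787, 15931 and 12966 CPM in the WT libraries. For 13 of 24 members the genotype effect differed between the 2 oxygen conditions by the interaction test, beside 73 of all genes (0.417%), and for 12 of the 13 it was more negative under hypoxia. Pgk1 (-1.87 under hypoxia) and Ldha (-2.06) are examples.

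Of the other hypoxia-inducible genes, 39 of the 42 listed were tested, and 2, Ankrd37 and Narf, were called, both lower (0.0171% over all genes). The median was -0.11 and the summed level was 1460 to 1496 CPM in the KO libraries, against 1501 to 1537 CPM in the WT libraries, which are adjacent ranges that just miss each other. At an unadjusted p under 0.05, 5 members were lower and 1 higher (6.6% and 2.51% over all genes), and 8 had every KO library below every WT library (7.73% over all genes). Without KO library 3 the median was -0.18 and 4 members were called (1.62% over all genes in that fit). The median was -0.06 with only the Xist libraries and 0.02 with the myeloid covariates.

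Plod1, a lysyl hydroxylase of collagen, had 8.18, 8.54 and 11.4 CPM in the KO libraries, against 20.5, 14.2 and 13.8 CPM in the WT libraries (-0.79 ± 0.20, edgeR adjusted p = 0.321). Bhlhe40, a transcriptional repressor, had 29.7, 30.4 and 29.8 CPM in the KO libraries, against 42.9, 44.9 and 36.1 CPM in the WT libraries (-0.46 ± 0.13, edgeR adjusted p = 0.361). P4ha1, a prolyl hydroxylase of collagen, had 21.7, 20.2 and 19.9 CPM in the KO libraries, against 27.2, 26.0 and 23.8 CPM in the WT libraries (-0.32 ± 0.11, edgeR adjusted p = 0.438). In all 3 genes the groups were separate. Without KO library 3 Plod1 was called (-0.96, edgeR adjusted p = 0.0455, over a range of 0.0398 to 1.0 across the alternatives), and with the myeloid covariates it was at -0.18. Ccng2, a cyclin-like gene, was the member on the other side, with 247, 259 and 254 CPM in the KO libraries, against 225, 229 and 224 CPM in the WT libraries (0.17 ± 0.06, edgeR adjusted p = 0.479).

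Several members that were strongly lower in KO cells under hypoxia had nearly equal normoxic levels. Bnip3l, a mitophagy receptor, had 126, 115 and 121 CPM in the KO libraries, against 105, 128 and 115 CPM in the WT libraries, with overlapping groups and a log2 fold change of 0.06 ± 0.11 (95% interval -0.17 to 0.29). Under hypoxia Bnip3l was at -1.84. The related mitophagy receptor Bnip3 was at -0.04 in normoxia and -2.06 in hypoxia, and the angiogenic factor Vegfa at -0.06 in normoxia and -1.31 in hypoxia. For Bnip3l, Bnip3, Vegfa and P4ha1 the interaction passed the test, as it did for 11 of the 39 members, each more negative under hypoxia.

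**Figure D4:**
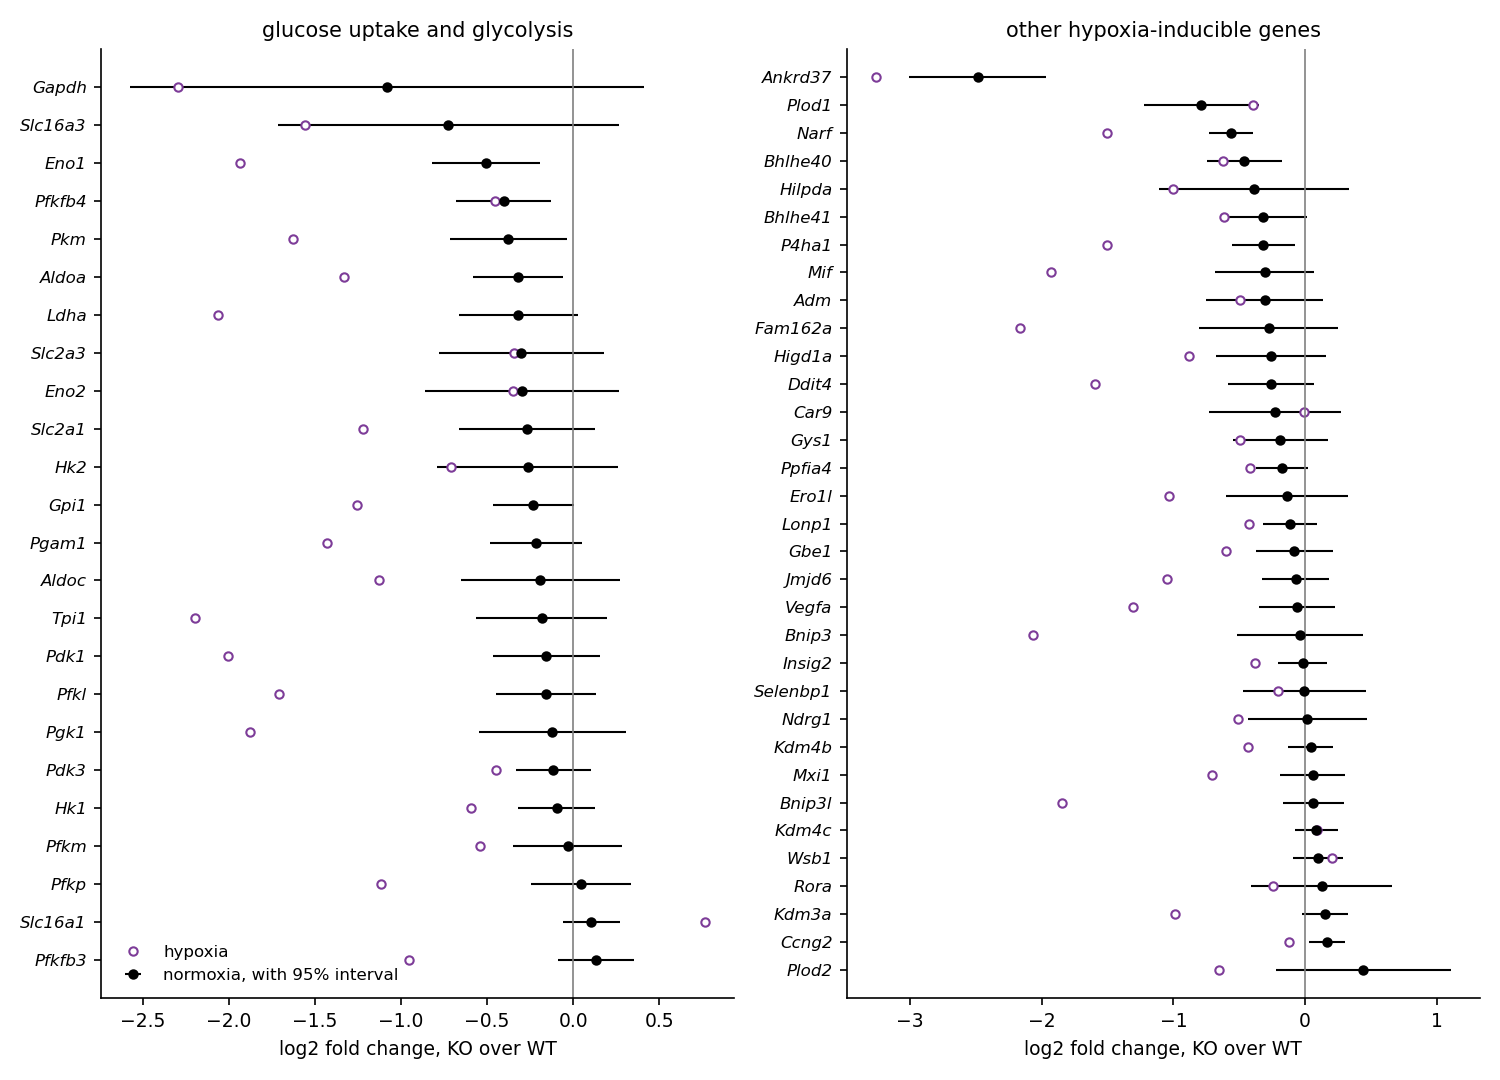
Log2 fold changes, KO over WT, of the members of the 2 hypoxia lists with at least 1 CPM in the higher normoxia group (24 of 24 and 33 of 39) are shown as black points with 95% intervals for normoxia and as open purple circles for hypoxia. In normoxia most intervals include 0 (20 of 24 and 27 of 33), Ankrd37 stands apart at -2.49, and the hypoxia value lies below the normoxia interval for 17 of 24 and 22 of 33 genes.

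No component of the HIF pathway was called in normoxia. Of 23 tested, the median was 0.02, and Hif1a and Epas1 were the 2 with an unadjusted p under 0.05, both higher in KO (2.51% over all genes). Every KO library lay above every WT library for 2 of the 23 and below for 2 (4.78% and 7.73% over all genes). Epas1, which encodes the related factor HIF-2α, had 2.71, 2.08 and 2.14 CPM in the KO libraries, against 1.66, 1.74 and 1.33 CPM in the WT libraries (0.55 ± 0.23, 95% interval 0.06 to 1.05, edgeR adjusted p = 0.506). Its groups did not overlap and it was rare beside Hif1a at about 111 CPM in the KO libraries, a comparison that does not correct for gene length. The partner subunit Arnt was at 0.05 and Vhl at -0.04. The oxygen sensors Egln1 and Egln3, themselves HIF targets, were at -0.23 ± 0.15 and -0.40 ± 0.31 with separate groups, whereas the groups of Egln2 overlapped. The chaperone genes Hsp90ab1 (-0.06) and Hsp90aa1 (0.02), the most abundant members, and Hspa1a, the inducible HSP70 (0.66, below 1 CPM in both groups), were not called.

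B-lineage transcripts were abundant in both genotypes. Of 22 B-lineage identity and receptor genes only Cd79a was called (0.0171% of all genes were called lower). The summed level of the list was 18059 to 19219 CPM in the KO libraries, against 18667 to 19890 CPM in the WT libraries. Cd79b, the partner chain of Cd79a, had 1654, 1532 and 1573 CPM in the KO libraries, against 1517, 2007 and 1348 CPM in the WT libraries (-0.03 ± 0.14), with overlapping groups. The B cell transcription factor Ebf1 (0.25), with every KO library above every WT library, and the inhibitory receptors Cd22 (-0.21) and Cd72 (-0.20), with every KO library below, had unadjusted p values under 0.05 and were not called. Of the 22, 2 were higher and 3 lower at such a p (2.51% and 6.6% over all genes). Every KO library lay above every WT library for 5 and below for 3 (4.78% and 7.73% over all genes).

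Among 22 pro-B and pre-B cell genes none was called, and the summed level was 7509 to 7951 CPM in the KO libraries, against 6308 to 7254 CPM in the WT libraries, without overlap. At an unadjusted p under 0.05, 5 were higher and 4 lower (2.51% and 6.6% over all genes), and 7 had every KO library above every WT library (4.78% over all genes). Rag1, the recombinase of receptor gene rearrangement, had 1134, 1032 and 1085 CPM in the KO libraries, against 840, 647 and 1034 CPM in the WT libraries (0.37 ± 0.14, edgeR adjusted p = 0.479), and Bach2, a repressor of plasma cell fate, was at 0.30 ± 0.12. With only the Xist libraries Rag1 was at 0.07 and Bach2 at 0.16, and without WT library 2 they were at 0.20 and 0.18. Members on the other side included the transcription factor Erg (-0.65 ± 0.19, edgeR adjusted p = 0.380), the surrogate light chain genes Vpreb1 (-0.52 ± 0.20) and Igll1 (-0.42 ± 0.18), and Dntt, which encodes terminal transferase (-0.43 ± 0.14). The values of these 4 genes with only the Xist libraries were -0.57, -0.16, -0.10 and -0.18. In bulk RNA, fewer cells of a stage and less RNA per cell cannot be told apart.

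Genes of later B cells were level or slightly lower. The 22 immature and mature B cell genes had a median of -0.16 and 17 lay below 0, and the median was 0.03 with only the Xist libraries. Ighm, the μ heavy chain and the most abundant member, had 7838, 7496 and 7079 CPM in the KO libraries, against 6722, 7902 and 6467 CPM in the WT libraries (0.09). The invariant chain gene Cd74 had 1546, 1378 and 1269 CPM in the KO libraries, against 1713, 2418 and 1319 CPM in the WT libraries (-0.38). Both genes had overlapping groups. Tnfrsf13c, the receptor for the survival factor BAFF, was at -0.37 with an unadjusted p under 0.05. The 9 tested plasma cell genes had a median of 0.06 and none was called.

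Tnfsf11 and Tnfrsf11b, osteoclast regulators of interest to the study, were rare in normoxic B cells. Tnfsf11, which encodes RANKL, the factor that drives osteoclast formation, had 6, 7 and 3 counts in the KO libraries, against 4, 7 and 0 counts in the WT libraries. Its decoy receptor Tnfrsf11b (osteoprotegerin) had 1, 0 and 2 counts in the KO libraries, against 0 in each WT library. Both were below the filter, and a difference was not detectable at this depth.

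Of 17 listed osteoclast-regulating cytokines 13 were tested and none was called. The median was -0.50 and 11 of 13 lay below 0, and the median was -0.54 without KO library 3, -0.27 without KO library 1 and -0.16 with only the Xist libraries. Tgfb1, the most abundant, was at -0.06. Csf1, the growth factor of macrophages and osteoclast precursors, had 60.3, 57.5 and 52.1 CPM in the KO libraries, against 50.3, 43.6 and 50.2 CPM in the WT libraries (0.24 ± 0.11, edgeR adjusted p = 0.565). Il1a, an inflammatory cytokine, had 0.502, 0.659 and 1.31 CPM in the KO libraries, against 4.59, 3.01 and 1.196 CPM in the WT libraries (-1.83 ± 0.46, edgeR adjusted p = 0.294). KO library 3 of Il1a lay above WT library 3, and without KO library 3 the gene was called (-2.34, edgeR adjusted p = 0.0378, over a range of 0.0319 to 1.0 across the alternatives). With only the Xist libraries its log2 fold change was -0.55. Ccl3, a chemokine of osteoclast precursors, was at -0.50 ± 0.18 with separate groups (edgeR adjusted p = 0.450).

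The genes that the study picked as bound by HIF-1α and raised after ovariectomy, a list chosen on other libraries of the same study, included no called gene. Of 22 listed 19 were tested, with a median of -0.06. Aif1, a macrophage gene (-1.07), Nr1h3, the oxysterol receptor LXRα (-1.44), and Kitl, stem cell factor (-1.54), were called without KO library 3. In that fit 1.62% of all genes were called, and all 3 are also made by cells other than B cells. With the monocyte and neutrophil levels as covariates Aif1 was at -0.17, Nr1h3 at -0.08 and Kitl at 0.29.

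Transcripts of other marrow cells were at unlike levels in these libraries. Of 24 monocyte and macrophage genes 23 lay below 0, with a median of -0.88, 14 had an unadjusted p under 0.05 with a lower level in KO (6.6% over all genes) and none was called. Their summed level was 2652, 2726 and 3480 CPM in the KO libraries, against 3736, 3927 and 4116 CPM in the WT libraries, and no defining marker was at 0 in any library. Fcgr1, a high affinity antibody receptor, had 3.54, 4.44 and 9.12 CPM in the KO libraries, against 15.9, 14.6 and 12.2 CPM in the WT libraries (-1.32 ± 0.30, edgeR adjusted p = 0.275). Csf1r, the receptor for Csf1, had 19.8, 21.3 and 46.8 CPM in the KO libraries, against 57.9, 58.2 and 65.3 CPM in the WT libraries (-1.05 ± 0.34, edgeR adjusted p = 0.432). KO library 3 was the highest KO library for both and still below WT. Without KO library 3 the median of the list was -1.29. In that fit 7 members were called lower, beside 1.62% of all genes called in either direction. The 7 were Csf1r, Ccr2, Cd68, Adgre1, Fcgr1, Ms4a6d and Vcam1. With only the Xist libraries the median was -0.66. Mpeg1, the most abundant member, which B cells can express, was at -0.14.

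Granulocyte genes leaned the same way with wide scatter. All 20 neutrophil and granule genes lay below 0, with a median of -0.77, and none had separate groups. The median was -1.27 without KO library 3, -0.41 without KO library 1 and -1.14 with only the Xist libraries. The myeloid covariates include the mean level of this same list. The median of -0.01 with them was therefore held near 0 by the fit itself. Their summed level was 1484, 3003 and 4978 CPM in the KO libraries, against 3105, 6063 and 6531 CPM in the WT libraries. S100a9, a calcium-binding protein of neutrophils, had 387, 835 and 1208 CPM in the KO libraries, against 818, 1639 and 1507 CPM in the WT libraries (-0.71 ± 0.40), which overlap. The 15 eosinophil, basophil and mast cell genes had a median of -0.85, at a summed level of 42.9 to 134.6 CPM in the KO libraries, against 98.7 to 164.5 CPM in the WT libraries. Without KO library 3 that median was -1.77 and 4 members were called (1.62% over all genes in that fit). The median was -0.47 without KO library 1, -1.19 with only the Xist libraries and 0.23 with the myeloid covariates. The 20 T and NK cell genes had a median of -0.26 and the 15 dendritic cell genes of -0.07.

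Erythroid genes leaned the other way, most of all in KO library 1, with summed levels of 3184, 1069 and 579 CPM in the KO libraries, against 754, 568 and 686.5 CPM in the WT libraries. All 13 lay above 0 with a median of 1.17 and none was called. The median was 0.60 without KO library 1 and -0.97, on the other side of 0, with the myeloid covariates. The β-globin gene Hbb-bs had 1466, 339 and 83.3 CPM in the KO libraries, against 172, 103 and 140 CPM in the WT libraries (2.19 ± 1.03, edgeR adjusted p = 0.571). KO library 1 was the highest and KO library 3 the lowest of the 6. The 11 megakaryocyte genes had a median of 0.58, which was -0.03 without KO library 1 and -0.87 with the myeloid covariates, and the 13 stromal and endothelial genes of -0.01. The covariate fits above cannot tell these other cells from genotype, and how far they contribute to the B cell comparison was not tested.

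**Figure D5:**
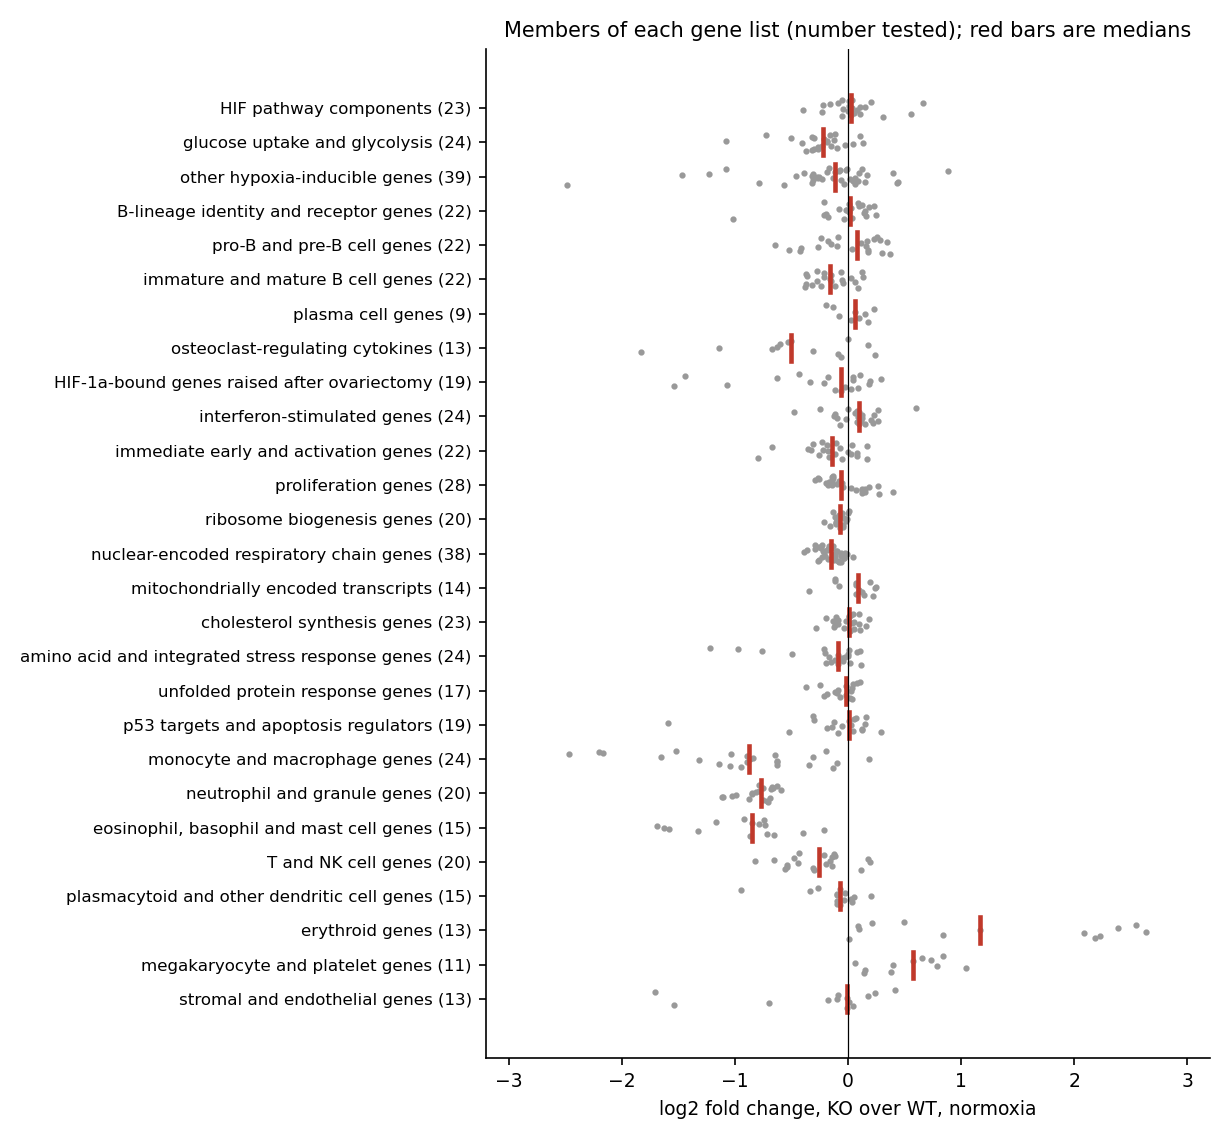
Gray points are the log2 fold changes, KO over WT in normoxia, of the tested members of 27 gene lists, with the number tested in parentheses, and red bars are list medians. The medians of the B cell, stress and metabolic lists lie between -0.22 and 0.09 around 0, those of the monocyte (-0.88), neutrophil (-0.77) and eosinophil, basophil and mast cell (-0.85) lists lie to the left, and that of the erythroid list (1.17) lies to the right.

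Metabolic and stress programs showed no called gene. The 38 nuclear-encoded respiratory chain genes lay mostly just below 0, with 37 of 38 below 0, a median of -0.15 and no member with separate groups, but the median was 0.10 with only the Xist libraries. The 14 mitochondrially encoded transcripts had a median of 0.09, the 23 cholesterol synthesis genes of 0.01 and the 20 ribosome biogenesis genes of -0.07. Proliferation genes (28) had a median of -0.07 in normoxia. Under hypoxia their median was 0.40 and 13 were called higher, beside 826 of all 17506 genes. With the monocyte and neutrophil covariates, 20 of all genes were called higher under hypoxia. The 24 interferon-stimulated genes had a median of 0.09, the 17 unfolded protein response genes of -0.02 and the 19 p53 targets and apoptosis regulators of 0.01.

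None of 22 immediate early and activation genes was called. Of these, 5 had an unadjusted p under 0.05 with a lower level in KO (6.6% over all genes) and 5 had every KO library below every WT library (7.73% over all genes). Fos, a subunit of AP-1, had 2.18, 3.37 and 2.80 CPM in the KO libraries, against 4.30, 5.75 and 4.39 CPM in the WT libraries (-0.80 ± 0.22, edgeR adjusted p = 0.356), and Atf3, a stress-induced factor, was at -0.67 ± 0.23. Among 24 genes of amino acid supply and the integrated stress response the median was -0.09, and Nupr1 (-0.97 ± 0.31) and Cebpb (-0.76 ± 0.33), a myeloid transcription factor, had every KO library below every WT library. With the monocyte and neutrophil levels as covariates Atf3 was at -0.02 and Cebpb at 0.22.

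Genes that the genotypes separated under hypoxia were mostly on the same side in normoxia, by smaller amounts. Of the 897 genes called lower in KO under hypoxia, 748 lay below 0 in normoxia (56.2% over all genes), the median of the 897 was -0.17 in normoxia and -0.63 under hypoxia, and 3 were called in both. Of the 826 called higher under hypoxia, 646 lay above 0 in normoxia and 180 below 0 (56.2% of all genes lay below 0). The median of the 826 was 0.09 in normoxia and 0.43 under hypoxia, and 1 was called in both. At an unadjusted p under 0.05 in normoxia, in either direction, there were 244 of the 897 and 121 of the 826. Over all genes, 1594 of 17506 had such a p in either direction. The 2 contrasts share no library, but the labels do not say that they share no mice, in both the monocyte list has a lower median in KO (-0.88 in normoxia and -0.68 in hypoxia) and WT libraries 1 and 2 carry Y-linked reads, as KO hypoxia library 1 also does, and their part in this likeness was not tested.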

How the data were processed

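RNA of mouse bone marrow B cells, purified with magnetic beads, was sequenced from TruSeq libraries of total RNA, 3 per group. The deposited table holds raw read counts of 12 libraries for 46983 Ensembl genes, which the authors did not normalize. The submitters' notes name CASAVA, Bowtie 0.12.2 and mm10. How reads were assigned to genes, with which annotation and strand, was not given in the sources used here, and reads of overlapping genes and of genes with pseudogenes are uncertain. The study states no test for these counts.

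Counts were tested with edgeR 4.0.16 (R 4.3.3). The fit used TMM scaling, filterByExpr (29477 genes with 0.0738% of reads left out) and a robust quasi-likelihood model of 4 group means over all 12 libraries, so that the groups share an estimate of the spread. The contrasts were KO minus WT in normoxia, the same in hypoxia, and their difference. Benjamini-Hochberg adjustment ran over 17506 genes and genes were called at 0.05. SEs were computed from the log2 fold change and the F statistic. The pipeline was tested on simulated data. Gene names and coordinates came from GENCODE vM21 on the same build. No library pair of a group matched within sampling noise.

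Alternatives were RLE factors, no filter, TMM computed without mitochondrial and immunoglobulin genes, a filter of 1 CPM in 3 libraries, only the compared groups, the replicate number as a block, covariates for Y-linked reads or for monocyte and neutrophil levels, only libraries with Xist and no Y-linked reads, DESeq2 1.42.0 and each library left out. A fit of only the normoxia groups with the myeloid covariates, and one of the interaction with the number as a block within each genotype, were chosen after seeing the data.

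The 29 gene lists (583 entries, 1 without a match, 558 distinct genes tested) and all other choices were made with earlier results of these data known. Named genes are Hif1a, Cd79a, Tnfsf11 and Tnfrsf11b, up to 4 called members per list or else up to 2 with the highest counts, and up to 15 called genes in each direction, leaving out immunoglobulin segments, pseudogenes and predicted models. Any other gene was chosen after its values were seen. Some genes are not reported here.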

Additional observations from a re-analysis of the deposited data

Results flagged for a closer look

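For 11 of the genes named above the KO-minus-WT difference itself differed between hypoxia and normoxia by the edgeR interaction test, and each was more negative under hypoxia. The differences of the log2 fold changes were -1.25 for Pkm, -1.01 for Aldoa, -1.43 for Eno1, -1.74 for Ldha, -1.75 for Pgk1 and -1.85 for Pdk1 among the glycolytic genes, and -0.94 for Narf, -1.91 for Bnip3l, -2.02 for Bnip3, -1.19 for P4ha1 and -1.25 for Vegfa among the other hypoxia-inducible genes. Ankrd37 (-0.77) did not pass this test. Groups of 3 libraries were too small for a test of single outlying samples.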

How the results depend on the processing

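The direction of Ankrd37, Narf and Cd79a held in all 17 alternatives. The count of 4 normoxic calls was 40 without the filter, 103 with DESeq2, 2 with the monocyte and neutrophil covariates (Ankrd37 and the pseudogene Rpl30-ps10), 0 with only the compared groups and 0 with only those groups and the myeloid covariates, a fit chosen after seeing the data. With only the Xist libraries it was 3, all predicted genes. Leaving out 1 library gave 3 to 294. Of the gene lists, 3 distinct members were called, against 0 with only the compared groups with or without the myeloid covariates, 1 with the covariates in the full fit, 0 with only the Xist libraries and 11 with DESeq2, and 2 to 20 when 1 library was left out. The 1723 hypoxic calls became 2512 with DESeq2, 2257 with the replicate block, 2020 with only the compared groups, 1008 with the Y-linked covariate, 100 with the myeloid covariates and 30 with only the Xist libraries, and 672 (without WT hypoxia library 1) to 1796 when 1 library was left out. The 73 interaction calls became 194 without the filter, 112 with the Y-linked covariate, 1 with only the Xist libraries and 327 with DESeq2, and 18 (without KO hypoxia library 1) to 224 (without WT hypoxia library 3) when 1 library was left out. The causes were not tested.

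With the replicate number as a block 4 genes were called, the same 4. Deviations of KO and WT normoxia libraries with the same number correlated at 0.12, -0.09 and -0.08, so the numbers do not pair KO with WT, and not every library correlated best with its own number. Between oxygen conditions the same numbers correlated at 0.20, 0.36 and 0.43 in WT and 0.18, -0.04 and 0.12 in KO. With the number as a block within each genotype, a fit chosen after seeing the data, the interaction gave 188 calls, 70 of the 73 among them. DESeq2 gave no adjusted p for 4075 genes.

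Precision is limited by 3 libraries a group, by counts of 8 to 62 for Ankrd37 and under 10 for Tnfsf11, by KO library 3 and by Y-linked reads in WT libraries 1 and 2, which leave 1 WT library in the fit without them.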

Other observations

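Sobp and Fign, chosen after their values were seen, had no count in KO libraries 1 and 2. Sobp had 35 counts in KO library 3, against 20, 34 and 42 counts in the WT libraries, and Fign had 16 counts in KO library 3, against 23, 26 and 19 counts in the WT libraries. Under hypoxia Sobp had 43, 96 and 57 counts in the KO libraries, against 69, 72 and 57 counts in the WT libraries. With 1 more gene, these were the 3 genes absent from both KO libraries while each other library of the series held at least 10 counts. DESeq2 called the Y-linked genes Ddx3y, Eif2s3y and Uty, whose reads stood in WT libraries 1 and 2 alone among the normoxia libraries.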
